A study of Mus musculus with 64 samples.

Results

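Choroid plexus signal in mouse hippocampus libraries is described here, by setting libraries with a high count of Ttr against libraries with a low one. Ttr encodes transthyretin, a thyroid hormone carrier that the choroid plexus secretes in very large amounts. Libraries were chosen by their measured Ttr level. Those with Ttr at 500 CPM or more (the count over the library's total count, times 1000000) were called rich, and those under 100 CPM were called poor. The rule gave 31 rich and 27 poor libraries, so that 58 of the 64 libraries of the series were compared, and 6 libraries lay between the cutoffs. The tissue was hippocampus throughout. The mice came from 8 inbred strains, C57BL/6J, 129S1/SvImJ, NOD/ShiLtJ, A/J, NZO/HlLtJ, CAST/EiJ, PWK/PhJ and WSB/EiJ, with 4 libraries from females and 4 from males of each. No treatment, transgene or age was named in the labels used here. The labels do not say whether each library came from a separate animal, so p-values measure the spread between these libraries.

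The choroid plexus is a sheet of secretory epithelium around a vascular core that hangs in the brain's ventricles and makes cerebrospinal fluid. Its epithelial cells carry ion pumps, bicarbonate transporters and water channels, are sealed by tight junctions, and release carrier proteins and growth factors into the fluid. A fold of the lateral ventricle's plexus lies along the fimbria of the hippocampus, so a dissected hippocampus can hold some of it. In bulk RNA, fewer cells of a type and less RNA per cell cannot be told apart.

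Every strain had libraries of both classes. The rich libraries numbered 3 of 8 in C57BL/6J, 4 in 129S1/SvImJ, 5 in NOD/ShiLtJ, 3 in A/J, 5 in NZO/HlLtJ, 5 in CAST/EiJ, 2 in PWK/PhJ and 4 in WSB/EiJ. The poor libraries numbered 4 in C57BL/6J, 4 in 129S1/SvImJ, 2 in NOD/ShiLtJ, 5 in A/J, 3 in NZO/HlLtJ, 2 in CAST/EiJ, 4 in PWK/PhJ and 3 in WSB/EiJ. By sex, 15 female and 16 male libraries were rich, and 14 female and 13 male libraries were poor. NOD/ShiLtJ males alone lacked a poor library. Total counts ran from 16607602 to 27759221 over all libraries, and their medians were 22584100 in rich and 22130700 in poor libraries. A median of 20387 genes had a count in rich libraries, against 20246 in poor libraries.

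Ttr itself chose the libraries, and its values are a description with no test. It ran from 511 through a median of 1737 to 4695 CPM in rich libraries, and from 4.79 through 26.9 to 88.1 CPM in poor libraries. The libraries nearest the upper cutoff were WSB/EiJ female 1 at 511 CPM and NZO/HlLtJ male 1 at 516 CPM inside it, and NOD/ShiLtJ male 2 at 451 CPM outside it. The nearest to the lower cutoff were WSB/EiJ female 2 at 88.1 CPM inside it and PWK/PhJ male 3 at 139 CPM outside it. Ttr was detected in all poor libraries, the lowest being A/J male 3.

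**Figure D1:**
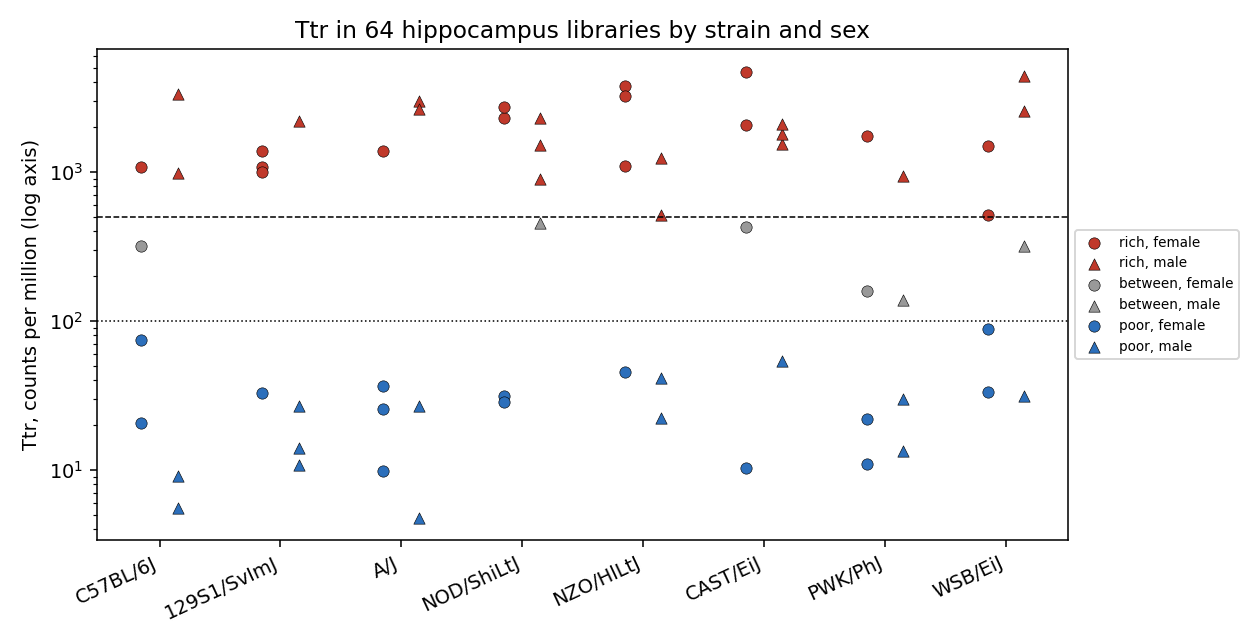
Ttr level of each of the 64 libraries (CPM, log axis) by strain, with females as circles and males as triangles. The dashed line is the cutoff of 500 CPM and the dotted line that of 100 CPM. Rich libraries sit between 511 and 4695 CPM and poor libraries between 4.79 and 88.1 CPM, and both classes occur in each strain.

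The label was checked against 4 further markers of choroid plexus epithelium. They were given with the rule, so their values are a description, no p is printed for them, and they are left out of the counts over lists. Folr1, the folate receptor that moves folate into cerebrospinal fluid, ran from 4.03 through 10.2 to 33.4 CPM in rich libraries and from 0.101 through 0.645 to 1.37 CPM in poor libraries. Kcnj13, an inward-rectifier potassium channel of the apical membrane, ran from 2.06 through 8.36 to 28.2 CPM in rich libraries and from 0 through 0.315 to 1.75 CPM in poor libraries. Aqp1, the epithelium's water channel, ran from 2.52 through 9.76 to 31.5 CPM in rich libraries and from 0.0864 through 0.465 to 1.28 CPM in poor libraries. For these 3 markers the lowest rich library lay above the highest poor library. Clic6, a chloride intracellular channel family protein, ran from 9.12 through 28.1 to 80.9 CPM in rich libraries and from 0.864 through 2.21 to 11.6 CPM in poor libraries. Clic6 alone overlapped, since its lowest rich library lay below its highest poor one. In the fit used for all genes the log2 fold changes of rich over poor were 4.69 for Aqp1, 4.43 for Kcnj13, 4.21 for Folr1 and 3.45 for Clic6.

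**Figure D2:**
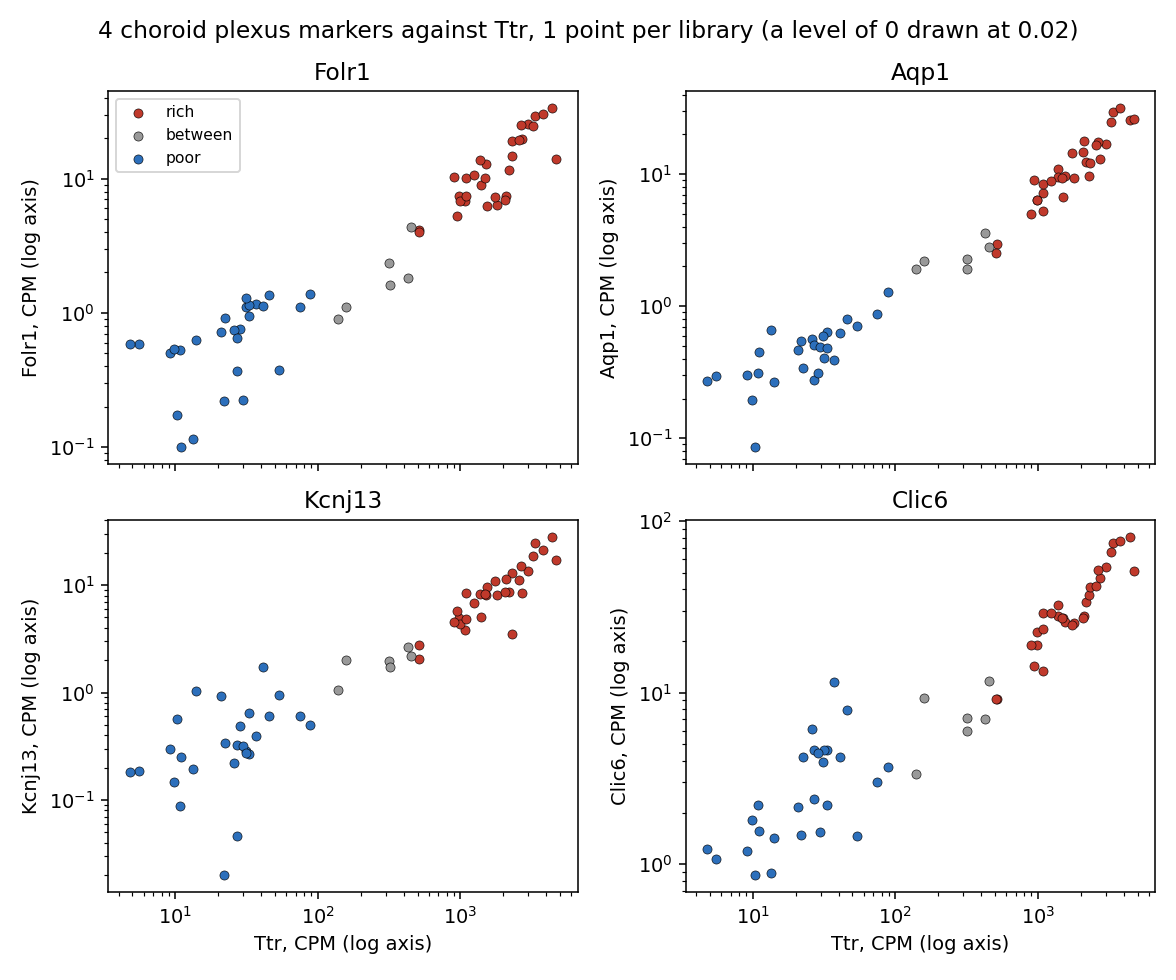
Levels of Folr1, Aqp1, Kcnj13 and Clic6 (CPM, log axes) against Ttr, with a point for each of the 64 libraries. Rich and poor libraries do not overlap in Folr1, Aqp1 or Kcnj13, and the lowest rich library in Clic6, at 9.12 CPM, lies below the highest poor one, at 11.6 CPM.

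All genes but Ttr were tested with edgeR's quasi-likelihood test, with strain as covariate and Benjamini-Hochberg adjustment over 17381 genes. The 4 given markers are among these and enter the counts of this paragraph as higher, 3 of them without overlap. Each p asks whether a gene's counts go with the Ttr class within strains. Of these genes 944 (5.43%) had an adjusted p under 0.05. The higher ones in rich libraries numbered 829 (4.77%), and 143 of them (0.823%) were higher by a log2 fold change of 1 or more. The lower ones numbered 115 (0.662%), and 0 of them were lower by as much with edgeR, against 1 with DESeq2. At an unadjusted p under 0.05, 2 genes were lower by as much. In 17 genes (0.0978%) all rich libraries lay above all poor ones, and in 0 genes all lay below. The median log2 fold change over all genes tested was -0.0036 and that of the higher genes 0.38. Most of the higher genes therefore differed by little, with 513 of the 829 under a log2 of 0.5. By strain means, 119 of the 143 genes were higher in rich libraries in 8 of 8 strains. The same libraries chose these genes, so this count is a description.

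Genes of the choroid plexus epithelium carried most of the large differences among the listed genes. Over the 6 lists of this epithelium (74 members, the given markers left out) 71 genes passed the count filter. Of those, 55 were higher in rich libraries, 0 were lower, and the median log2 fold change was 1.16. For 16 lists of other cells, regions and states, 10 of 170 tested genes were higher, 2 were lower, and the median was 0.01. Over all 17381 genes tested, 4.77% were higher and 0.662% lower, shares to set beside these and the later counts over lists. The lists were written with earlier results of these data known, so these counts are a description.

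**Figure D3:**
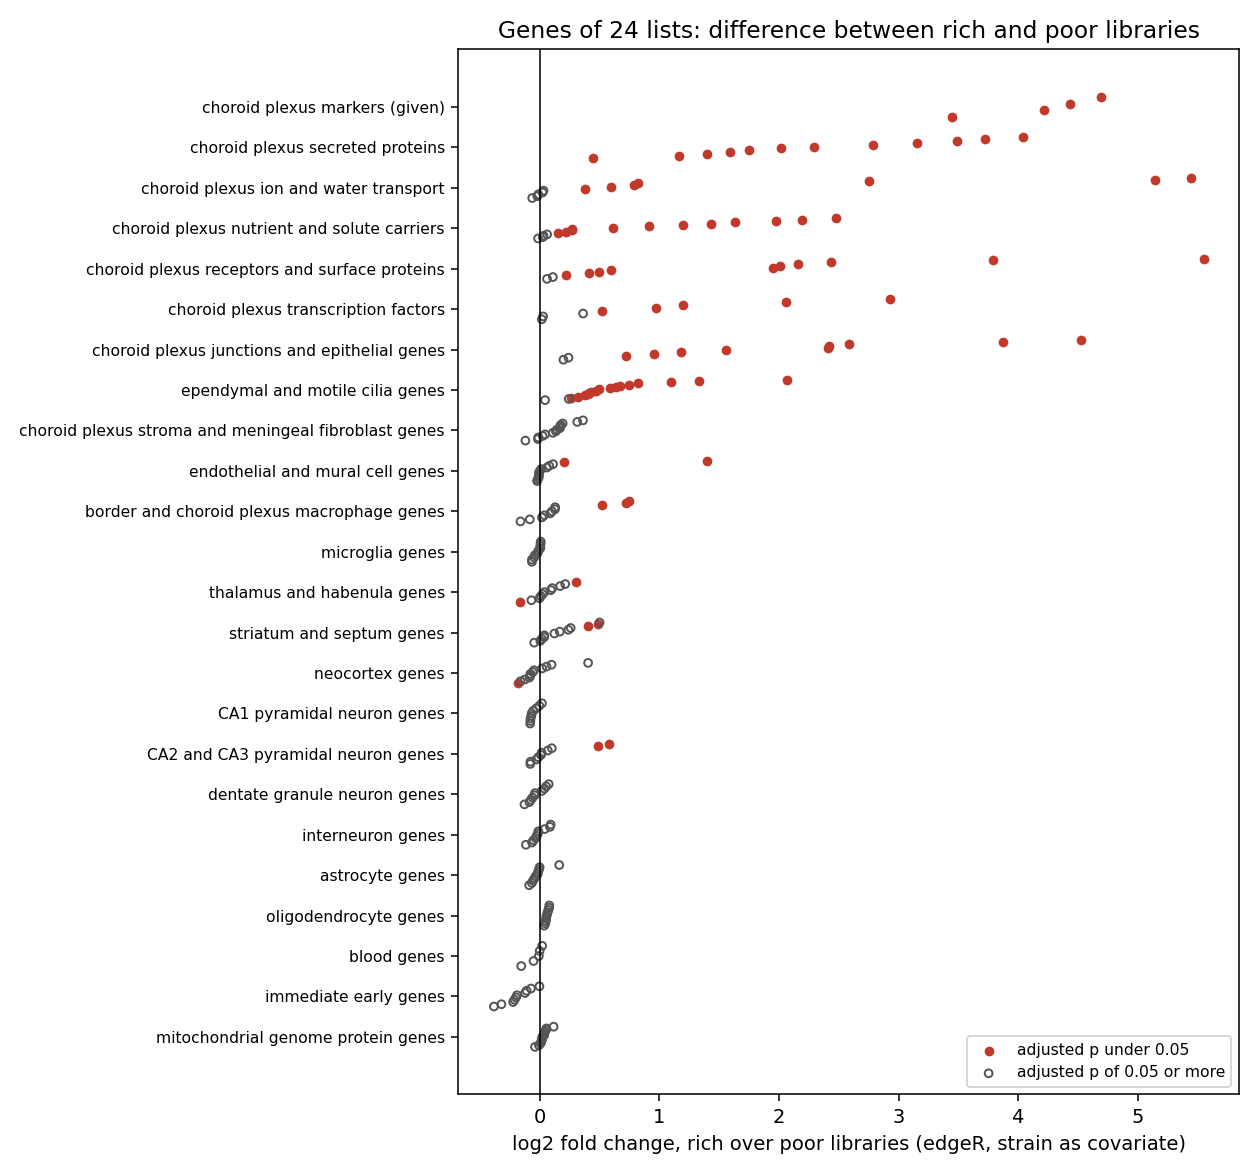
Log2 fold change of rich over poor libraries for each tested member of 24 gene lists, with filled points for an adjusted p under 0.05 and open points otherwise. The given markers other than Ttr are drawn too. The choroid plexus epithelium lists reach up to 5.55, while the lists of neurons, glia, blood and mitochondrial genes do not exceed 0.58.

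Secreted proteins of the epithelium were higher without exception among those tested. All 12 members passed the test, with a median log2 fold change of 2.16. Coagulation factor F5 ran from 3.57 through 19.2 to 50.6 CPM in rich libraries and from 0.347 through 1.02 to 2.29 CPM in poor libraries. Its groups did not overlap, and its log2 fold change was 4.04 ± 0.24 (SE; edgeR adjusted p = 6.15e-19). Wfdc2, a secreted protease inhibitor, differed by 3.72 ± 0.27. The gene listed as 1500015O10Rik, which encodes the secreted peptide Ecrg4, differed by 3.49 ± 0.22, and Sostdc1, a secreted modulator of BMP and Wnt signalling, by 3.15 ± 0.24. The groups of 1500015O10Rik and Sostdc1 did not overlap.

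Some secreted proteins of the list are also made elsewhere in the hippocampus or its coverings, and 3 of them were chosen for a closer look after their values were seen. Enpp2 encodes autotaxin, the enzyme that makes lysophosphatidic acid. Enpp2 ran from 265 through 592 to 1952 CPM in rich libraries and from 109 through 148 to 247 CPM in poor libraries, without overlap. Its log2 fold change was 2.30 ± 0.15 (edgeR adjusted p = 2.36e-17), and 80.2% of its level in rich libraries, averaged over strains, lay above its level in poor libraries. Igf2, an imprinted growth factor, ran from 57.8 through 110 to 275 CPM in rich libraries and from 14.1 through 41.3 to 145 CPM in poor libraries. The Igf2 groups overlapped widely, and the difference was 1.40 ± 0.16 (edgeR adjusted p = 3.76e-09). Igfbp2, a binding protein of insulin-like growth factors, differed by 1.16 ± 0.14. Among the reads themselves, Ttr was 1906 CPM higher in rich libraries and made up 60.6% of the summed difference of Ttr and the 143 genes. Enpp2 made up 19.6%. That sum was 3148 CPM, against 4920 CPM for Ttr and all 829 higher genes, so both shares depend on the fold cut. Ttr also chose the libraries, so its share is a description. Both are shares of reads, not of molecules, since longer transcripts give more reads.

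Ion and water transport split in 2. Of 12 tested members 7 were higher, 0 were lower and the median log2 fold change was 0.49. Slc4a5, an electrogenic sodium bicarbonate cotransporter of the apical membrane, ran from 1.55 through 11.2 to 31.8 CPM in rich libraries and from 0.0432 through 0.279 to 0.694 CPM in poor libraries. The groups of Slc4a5 were far apart, with a log2 fold change of 5.44 ± 0.29 (edgeR adjusted p = 1.85e-20). Kcne2, a potassium channel beta subunit, differed by 5.14 ± 0.28, and Trpv4, a cation channel that senses osmotic change, by 2.76 ± 0.19, both without overlap. Car14, a membrane carbonic anhydrase, was higher by 0.82 ± 0.08 with overlapping groups. Reads of Kcnj13, Car14 and Slc4a2 may be shared with genes on the opposite strand, since the use of strand in counting is not given.

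Transporters that neurons and glia also use differed by less or did not pass the test. Slc12a2, the sodium-potassium-chloride cotransporter NKCC1, and Slc4a2, an anion exchanger, were higher by 0.38 ± 0.05 and 0.79 ± 0.07. Atp1b1, a sodium pump subunit, did not pass the test, with medians of 2072 CPM in rich and 2081 CPM in poor libraries. Slc4a10, a sodium-dependent bicarbonate transporter, had 267 CPM in rich and 249 CPM in poor libraries (edgeR adjusted p = 0.771). These 4 genes were named after their values were seen.

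Nutrient and solute carriers were higher in 12 of 16 cases, lower in 0, with a median of 0.44. Slco1a5, an organic anion carrier with close paralogs whose reads may be shared, ran from 0 through 0.311 to 1.10 CPM in rich libraries and from 0 through 0.0548 to 0.437 CPM in poor libraries. Its difference was 2.48 ± 0.26 (edgeR adjusted p = 1.09e-10), at a level of a few reads per library. Abca4, a retinoid flippase best known from the eye, was higher by 2.19 ± 0.17. Slc28a3, a concentrative nucleoside transporter, was higher by 1.98 ± 0.24 and Slc39a4, a zinc importer, by 1.63 ± 0.19.

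Receptors and surface proteins held the widest difference of all listed genes. Of 12 tested members 10 were higher and 0 lower, with a median of 1.27. Mfrp, a frizzled-related membrane protein, ran from 3.07 through 13.9 to 49.8 CPM in rich libraries and from 0 through 0.359 to 1.24 CPM in poor libraries. No library crossed over, and the log2 fold change was 5.55 ± 0.31 (edgeR adjusted p = 8.59e-20). Mfrp overlaps Rnf26, at a mean of 36.8 CPM, on the opposite strand, and the use of strand in counting is not given. Mfrp also shares exon sequence with C1qtnf5 on the same strand. C1qtnf5 had medians of 9.87 CPM in rich and 8.52 CPM in poor libraries and did not pass the test (edgeR adjusted p = 0.0814). Steap1, a membrane protein of the STEAP family, was higher by 3.79 ± 0.29, the transmembrane protein Tmem72 by 2.44 ± 0.18, and Prlr, the prolactin receptor, by 2.16 ± 0.19.

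Hormone-related surface proteins of this list were also looked at after their values were seen. Kl encodes klotho, the co-receptor of FGF23. Kl ran from 29.0 through 61.2 to 175 CPM in rich libraries and from 2.74 through 23.3 to 29.7 CPM in poor libraries, with a difference of 1.95 ± 0.17 (edgeR adjusted p = 2.82e-13). The overlap of Kl was narrow. In the poor libraries Kl averaged 3.15 ± 0.344 CPM in PWK/PhJ (SD, n = 4) and 6.05 ± 1.22 CPM in CAST/EiJ (SD, n = 2). In the other 6 strains the Kl means of the poor libraries ran from 19.4 to 26.0 CPM. Ace, the angiotensin-converting enzyme, was higher by 2.0 ± 0.15 without overlap. Htr2c, a serotonin receptor of choroid plexus and of neurons, was higher by 0.41 ± 0.06, and Trpm3, a steroid-gated cation channel, by 0.60 ± 0.09, with overlapping groups.

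Promoters of 3 genes are shown because these members of the epithelium lists had wide differences and a single RefSeq promoter window each. The 250 bases before the start of each gene are given from the RefSeq table of build GRCm38.p6, with the motif TAATCC or its complement GGATTA in capitals. TAATCC is the core bound by homeobox factors of the OTX family, and Otx2 is known for its part in choroid plexus development. The windows are chr9:44101520-44101769 for Mfrp, chr6:83237125-83237374 for Slc4a5 and chr6:55336049-55336298 for Aqp1, all on the plus strand.
Mfrp: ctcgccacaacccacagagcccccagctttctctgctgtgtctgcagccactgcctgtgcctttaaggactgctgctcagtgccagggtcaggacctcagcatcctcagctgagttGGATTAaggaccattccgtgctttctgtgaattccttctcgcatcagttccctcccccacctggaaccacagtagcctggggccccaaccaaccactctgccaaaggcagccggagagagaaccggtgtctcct
Slc4a5: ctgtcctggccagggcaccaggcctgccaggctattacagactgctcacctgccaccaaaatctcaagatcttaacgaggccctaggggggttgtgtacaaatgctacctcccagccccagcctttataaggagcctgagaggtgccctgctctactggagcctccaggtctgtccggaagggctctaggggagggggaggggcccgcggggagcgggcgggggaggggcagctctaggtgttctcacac
Aqp1: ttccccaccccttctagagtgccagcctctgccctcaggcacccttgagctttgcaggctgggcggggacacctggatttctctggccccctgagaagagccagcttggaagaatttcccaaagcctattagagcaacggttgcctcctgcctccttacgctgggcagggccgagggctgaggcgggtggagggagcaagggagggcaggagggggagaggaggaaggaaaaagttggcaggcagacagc
Only the Mfrp window among these holds the motif, as GGATTA, starting 134 bases before the gene's start. The motif occurred on either strand in 7.69% of the 104 genes that were higher by a log2 of 1 or more and had a window. It occurred in 6.39% of the 12876 tested genes with a window. A match is a stretch of letters and no evidence of binding.

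Transcription factors were higher in 5 of 8 tested members and lower in 0, with a median of 0.75. Lmx1b and Hmx3 did not pass the count filter. Otx2 ran from 2.02 through 6.85 to 18.1 CPM in rich libraries and from 0.369 through 0.799 to 3.03 CPM in poor libraries. The Otx2 groups overlapped at their edges, with a difference of 2.93 ± 0.22 (edgeR adjusted p = 3.41e-15). Lmx1a, a roof plate factor, was higher by 2.06 ± 0.23 and Msx1, another dorsal midline factor, by 1.2 ± 0.11. Zic1 was higher by 0.97 ± 0.24, with levels from 8.56 to 68.9 CPM in rich libraries and from 5.40 to 49.8 CPM in poor libraries.

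Junction and epithelial genes were higher in 9 of 11 tested members and lower in 0, with a median of 1.56. Esrp1, a splicing factor of epithelia, did not pass the filter. Cdh3, P-cadherin, ran from 0.252 through 0.992 to 3.22 CPM in rich libraries and from 0 through 0.0438 to 0.229 CPM in poor libraries, a difference of 4.53 ± 0.33 (edgeR adjusted p = 4.90e-16). Cldn2, the claudin that forms cation pores in leaky epithelia, ran from 2.14 through 7.80 to 27.7 CPM in rich libraries and from 0.151 through 0.658 to 1.37 CPM in poor libraries, a difference of 3.87 ± 0.23. Neither gene's groups overlapped. The simple-epithelium keratins Krt18 and Krt8 were higher by 2.59 ± 0.18 and 2.42 ± 0.22.

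Among the rich libraries alone, many of these genes followed the amount of Ttr. A slope on log2 Ttr with strain as covariate was fitted to the 31 rich libraries, which leaves the contrast between classes out. A slope of 1 means that a gene's level doubles when Ttr doubles. By edgeR's quasi-likelihood test 370 genes (2.13%) rose with Ttr and 14 (0.0805%) fell. Of the 829 genes higher in rich libraries 333 also rose (40.2%), and these were 90.0% of the genes that rose. Of the 143 genes with the larger fold 115 rose and 142 had a positive slope. The 2 results share the rich libraries, so they are not independent of each other.

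Slopes differed widely within the epithelium lists. Those near 1 were 1.11 ± 0.05 for Mfrp (SE), 1.07 ± 0.06 for Slc4a5, 1.0 ± 0.10 for Cdh3, 0.98 ± 0.07 for F5 and 0.97 ± 0.05 for Cldn2. Slopes were 0.81 ± 0.05 for Sostdc1, 0.77 ± 0.07 for Trpv4, 0.74 ± 0.06 for Krt18, 0.73 ± 0.08 for Krt8 and 0.65 ± 0.06 for Abca4. Among genes that other brain cells also express, slopes were in the same range for Enpp2 (0.75 ± 0.06), Ace (0.74 ± 0.05) and Kl (0.73 ± 0.05). Smaller ones were 0.52 ± 0.05 for Msx1, 0.40 ± 0.03 for Slc4a2, 0.30 ± 0.05 for Car14 and 0.23 ± 0.04 for Slc12a2. Each of these genes passed the test of its slope, and slopes of different genes were not compared by a test. The epithelium lists rose with Ttr in 50 of 71 tested members and fell in 0. The lists of other cells, regions and states rose in 4 of 170 (Kdr, Map3k15, Prdm16 and Ppp1r1b) and fell in 0. Over all genes tested, 2.13% rose and 0.0805% fell. Zic1, which passed the class test, had a slope of 0.30 ± 0.21 (edgeR adjusted p = 0.575).

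**Figure D4:**
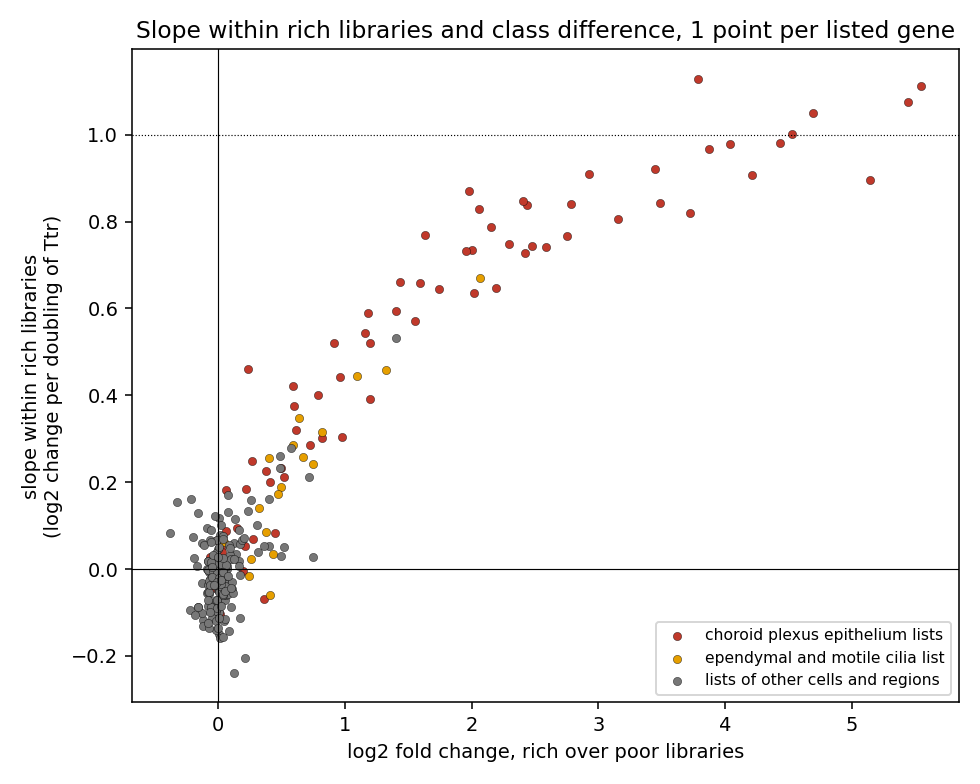
Slope on log2 Ttr within the 31 rich libraries against the log2 fold change of rich over poor libraries, with a point for each listed gene. Choroid plexus epithelium genes with the widest class difference have slopes near 1 (dotted line), such as Mfrp at 1.11. Most genes of other cells sit nearer 0, with exceptions such as Esm1 (difference 1.40, slope 0.53) and Map3k15 (0.58 and 0.28). The slope of Esm1 did not pass edgeR's test (adjusted p = 0.334), at medians of 0.262 CPM in rich and 0.0739 CPM in poor libraries. The axes share the rich libraries.

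Within the 27 poor libraries few genes passed the test of a slope on log2 Ttr, and the reason was not tested. Enpp2, with a median of 148 CPM there, had a slope of 0.11 (edgeR adjusted p = 0.556). By edgeR's test 2 genes (0.0115%) rose with Ttr and 0 fell, while 488 rose and 413 fell at an unadjusted p under 0.05. The genes that rose were Slc4a5, with a slope of 0.63 (adjusted p = 0.0336), and Sfrp5, a secreted Wnt antagonist, with a slope of 1.24 (adjusted p = 0.0336). Sfrp5 was named because of this count. It ran from 0.120 through 1.47 to 5.36 CPM in rich libraries and from 0 through 0.135 to 2.05 CPM in poor libraries.

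Cilia genes moved with the plexus, by less. Both the ependymal lining of the ventricles and the choroid plexus epithelium bear cilia, and the list of ependymal and motile cilia genes does not separate them. Of 18 tested members 16 were higher in rich libraries and 0 lower, with a median of 0.49, and 7 rose with Ttr among rich libraries. Calml4, a calmodulin-like protein, ran from 2.44 through 6.35 to 16.3 CPM in rich libraries and from 0.549 through 1.83 to 2.93 CPM in poor libraries, with a difference of 2.07 ± 0.15 (edgeR adjusted p = 8.75e-16). Its groups overlapped only at the edges. Spag16, an axoneme protein, was higher by 1.33 ± 0.11, Pifo by 1.10 ± 0.15 and the cilia protein gene Cfap126 by 0.82 ± 0.11. Foxj1, the master regulator of motile cilia, had medians of 14.5 CPM in rich and 9.12 CPM in poor libraries and was higher by 0.52 ± 0.07. Ccdc153, an ependymal gene, was higher by 0.43 ± 0.10 between classes and had a slope of 0.03 ± 0.08 among rich libraries. Foxj1 and Ccdc153 were named after their values were seen.

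The list of plexus stroma and meningeal fibroblast genes does not separate the plexus from the meninges, and its genes gave no calls. Of 14 stromal and meningeal fibroblast genes 0 were higher and 0 lower by edgeR, with 3 higher at an unadjusted p under 0.05 and 0 called by DESeq2. Their median was 0.14, and 11 of the 14 had a positive difference and 3 a negative one. Ptgds, prostaglandin D synthase of the meninges, ran from 55.6 through 343 to 832 CPM in rich libraries and from 44.7 through 273 to 772 CPM in poor libraries. Dcn, decorin, had medians of 51.0 CPM in rich and 44.6 CPM in poor libraries. Both spread widely within each class. The summed level of the 14 genes ran from 153 to 1140 CPM in rich libraries and from 157 to 1117 CPM in poor libraries.

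Endothelial and mural genes were higher in 2 of 13 cases, lower in 0, with a median of 0.00. Esm1, a marker of endothelial tip cells, ran from 0 through 0.262 to 1.31 CPM in rich libraries and from 0 through 0.0739 to 0.580 CPM in poor libraries, a difference of 1.40 ± 0.31 (edgeR adjusted p = 0.00117). Plvap, which forms the diaphragms of fenestrated capillaries such as those of the plexus, had medians of 11.0 CPM in rich and 8.11 CPM in poor libraries. It was higher by 0.21 ± 0.06 (edgeR adjusted p = 0.0299), a call lost in 8 of 51 alternatives.

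Macrophage genes were higher in 3 of 11 tested cases and lower in 0, with a median of 0.10. All 3 belong to MHC class II antigen presentation. Cd74, the invariant chain, ran from 1.45 through 3.88 to 11.6 CPM in rich libraries and from 0.504 through 2.25 to 6.78 CPM in poor libraries, a difference of 0.72 ± 0.16 (edgeR adjusted p = 0.00172). H2-Aa differed by 0.75 ± 0.18 and H2-Ab1 by 0.52 ± 0.15, and the call of H2-Ab1 was lost in 8 of 51 alternatives. None of the 3 passed the test of a slope on Ttr among rich libraries, the slopes being 0.21 ± 0.11 for Cd74, 0.03 ± 0.14 for H2-Aa and 0.05 ± 0.11 for H2-Ab1. Of 10 microglia genes 0 were higher and 0 lower by edgeR, by DESeq2 and at an unadjusted p under 0.05. Their summed level ran from 304 to 484 CPM in rich libraries and from 316 to 499 CPM in poor libraries.

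Marker genes of the hippocampus and of neighbouring regions were checked, since a cut that takes plexus could also differ in other tissue. Whether such a difference had a part in the results was not tested. Thalamus and habenula genes were higher in 1 and lower in 1 of 11 tested cases, with a median of 0.04 and a summed level from 107 to 177 CPM in rich and from 104 to 157 CPM in poor libraries. The higher was Prkcd, a kinase gene of thalamic relay neurons (0.31 ± 0.09, edgeR adjusted p = 0.0292), and the lower was Nwd2 (-0.16 ± 0.05, edgeR adjusted p = 0.0343). Both calls were fragile, being lost in 11 and 12 of 51 alternatives. Striatum and septum genes were higher in 2 of 12 cases, lower in 0, with a median of 0.15. These were Prdm16 (0.49 ± 0.10) and Ppp1r1b, which encodes DARPP-32. Ppp1r1b ran from 44.0 through 59.4 to 75.0 CPM in rich libraries and from 27.7 through 43.6 to 63.4 CPM in poor libraries, a difference of 0.40 ± 0.04 (edgeR adjusted p = 1.90e-10). Both also rose with Ttr among rich libraries, and Ppp1r1b had a Spearman's rho of 0.849 with Ttr over the 64 libraries, centred within strain. Which cells or region the reads of these 2 genes came from was not tested. Of the 12 genes 11 had a positive difference, and 6 were higher at an unadjusted p under 0.05, the called ones included. The negative difference was that of Drd1, a dopamine receptor gene, at -0.05 (named after its value was seen). The summed level of the striatum and septum genes ran from 193 to 297 CPM in rich and from 179 to 245 CPM in poor libraries.

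Neurons of the hippocampus showed little. Of 9 CA1 genes, 10 dentate granule genes and 10 interneuron genes 0 were called in either direction by edgeR or DESeq2. At an unadjusted p under 0.05, 2 CA1 genes and 1 interneuron gene were lower. Of the 9 CA1 genes 8 had a negative difference. Mpped1 had medians of 238 CPM in rich and 251 CPM in poor libraries, with a difference of -0.08 ± 0.03 (edgeR adjusted p = 0.138). It was called lower in 3 of 51 alternatives, with edgeR adjusted p = 0.00442 with rich at 1000 CPM or more, 0.0157 for the slope over all libraries and 0.0152 with both stricter cutoffs. Wfs1 had medians of 235 CPM in rich and 227 CPM in poor libraries, with a fitted difference of -0.07 ± 0.05 within strains, Calb1 had 117 CPM in rich and 124 CPM in poor libraries, and Gad1 had 340 CPM in rich and 331 CPM in poor libraries. Among 10 genes of CA2 and CA3 neurons 2 were higher, Map3k15 by 0.58 ± 0.09 and Coch by 0.49 ± 0.10, and 0 were lower. Map3k15 shares exons with Pdha1 on the opposite strand. Of 12 neocortex genes 0 were higher by edgeR, against 1 by DESeq2, and 1 was lower. The lower one was Nr4a2 (-0.18 ± 0.06, edgeR adjusted p = 0.0418), whose call was lost in 26 of 51 alternatives.

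Glia, blood and mitochondria gave no calls. By edgeR and by DESeq2, 0 of 10 astrocyte genes, 0 of 10 oligodendrocyte genes, 0 of 5 tested blood genes, 0 of 10 immediate early genes and 0 of 13 mitochondrial genes were called. At an unadjusted p under 0.05 the counts were 3 lower immediate early genes and 1 higher mitochondrial gene, and 0 for the others. Small differences were one-sided in several lists. They were positive in 10 of 10 oligodendrocyte genes (0.04 to 0.08) and 11 of 13 mitochondrial genes, and negative in 9 of 10 astrocyte and 4 of 5 blood genes. The 10 immediate early genes all had a negative log2 fold change, with a median of -0.19. Among them Arc had medians of 86.3 CPM in rich and 95.3 CPM in poor libraries, and Egr1 had 101 CPM in rich and 106 CPM in poor libraries.

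Beyond the lists, 99 of the 143 genes with the larger fold lay outside them. The 15 protein-coding ones with the widest difference at a mean of 1 CPM or more began with Prr32, a little-studied proline-rich protein, at 3.50 ± 0.26, Wdr86 at 2.87 ± 0.21 and Slc16a8, a lactate transporter known from retinal pigment epithelium, at 2.70 ± 0.23. Several others are known from the eye's pigment epithelium or retina, a relation stated as background only. They were Oca2, a melanosome protein (1.90 ± 0.21), Rdh5, a retinol dehydrogenase (1.41 ± 0.13), Six3, an eye and forebrain factor (1.58 ± 0.31), and Rd3 (1.38 ± 0.17). Rdh5 shares exons with Bloc1s1 and Six3 with its antisense gene. The rest were Pla2g5, a secreted phospholipase (1.98 ± 0.18), Drc7, an axonemal protein (1.61 ± 0.15), the interferon-induced GTPase Tgtp1 (1.47 ± 0.22), which has a near-identical copy, the methyltransferase Inmt (1.43 ± 0.18), the endocytic adaptor Epn3 (1.37 ± 0.12), Col9a3, a collagen chain (1.32 ± 0.11), the tubulin Tuba1c (1.28 ± 0.15) and Prdm12 (1.28 ± 0.38, edgeR adjusted p = 0.0331). The call of Prdm12 was lost in 11 of 51 alternatives. All but Prdm12, Six3 and Tgtp1 also rose with Ttr among rich libraries.

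Some hormone and hormone receptor genes among the 143 were named after their values were seen, with Ins2 and Mc3r at low counts. Ins2, an insulin gene, ran from 0 through 0.165 to 0.962 CPM in rich libraries and from 0 through 0 to 0.224 CPM in poor libraries, with edgeR adjusted p = 4.86e-09. Most poor libraries thus held no Ins2 read, and a fold is not given. Lepr, the leptin receptor, ran from 1.39 through 4.50 to 7.81 CPM in rich libraries and from 0.464 through 1.75 to 4.62 CPM in poor libraries, a difference of 1.10 ± 0.14. Mc3r, a melanocortin receptor, had medians of 0.689 CPM in rich and 0.0925 CPM in poor libraries (edgeR adjusted p = 0.00530). Clu, clusterin, shows the other end of the scale and is not among the 143. It was also named after its value was seen. It had medians of 824 CPM in rich and 746 CPM in poor libraries and differed by 0.12 ± 0.03 (edgeR adjusted p = 0.0112), and its slope among rich libraries was 0.01 ± 0.03. The call of Clu was lost in 2 of 51 alternatives.

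The genes whose pattern was most like that of Ttr were ranked by Spearman's rho over the 64 libraries, after log2(CPM + 0.1) was centred within strain. Outside the lists the highest were Prr32 at 0.954, 2900040C04Rik at 0.951, Wdr86 at 0.945 and Cab39l at 0.927. Epn3, Rdh5, Itpripl1, Col9a3, Wdr72 and Pla2g5 followed. The given markers had 0.977 for Aqp1, 0.974 for Folr1, 0.965 for Clic6 and 0.945 for Kcnj13. Cab39l, a scaffold of kinase complexes from the MO25 family, had levels in every library, with 28.6 to 70.2 CPM in rich and 23.6 to 30.7 CPM in poor libraries. It differed by 0.73 ± 0.07, and it overlaps Cdadc1 on the opposite strand.

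Most genes lower in rich libraries were lower by little. The median log2 fold change of the 115 genes was -0.09. The most negative was AC136710.2, a long noncoding RNA named after its value was seen, at -0.98 ± 0.19 (edgeR adjusted p = 0.000199). AC136710.2 ran from 0 through 0.843 to 9.6 CPM in rich libraries and from 0.538 through 2.08 to 15.9 CPM in poor libraries, with overlapping groups, and its mean was lower in rich libraries in each of the 8 strains. The protein-coding ones with the most negative values at a mean of 1 CPM or more were Zfp493, Pik3r6 and Lipg at -0.23, Dusp4 at -0.18, Fosl2 at -0.16, and Rgs4, Runx1t1, Ahr, Ipcef1 and Plch2 between -0.15 and -0.14. Rgs4, a regulator of G protein signalling in neurons, ran from 116 through 164 to 226 CPM in rich libraries and from 152 through 171 to 258 CPM in poor libraries (-0.15 ± 0.04, edgeR adjusted p = 0.00526). Dusp4, a phosphatase of MAP kinases, ran from 11.5 through 16.8 to 22.6 CPM in rich libraries and from 11.5 through 18 to 26.1 CPM in poor libraries. Groups overlapped widely in both. Of the 115 genes 1 also fell with Ttr among rich libraries (Vxn, a neuronal gene, at -0.08 ± 0.02), and 77 had a negative slope. The class calls of Vxn, Zfp493 and Lipg were lost in 29, 19 and 13 of 51 alternatives, and those of Dusp4, Runx1t1, Ahr, Plch2, Fosl2 and Ipcef1 in 2 to 7. The number of lower genes was 61 without PWK/PhJ female 2, and from 35 to 142 when a strain was left out, with 35 without C57BL/6J.

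Relative to Ttr, the markers were not equal in all strains. In rich libraries Folr1 per 1000 CPM of Ttr ran from 3.0 through 7.60 to 11.4. It was 3.0 to 4.10 in the 5 rich libraries of CAST/EiJ and 4.17 to 5.56 in the 2 of PWK/PhJ, against 5.33 to 11.4 in those of the other 6 strains. CAST/EiJ thus lay below every other strain without overlap. Clic6 per 1000 CPM of Ttr ran from 10.8 to 16.7 in CAST/EiJ and from 14.3 to 15.2 in PWK/PhJ. Both ranges overlapped that of 129S1/SvImJ, at 12.3 to 22.7. The CAST/EiJ range also overlapped those of NOD/ShiLtJ, at 16.1 to 21.1, and WSB/EiJ, at 16.41 to 18.45. Aqp1 and Kcnj13 did not follow this order. Aqp1 per 1000 CPM of Ttr was 8.36 to 9.59 in PWK/PhJ and 4.22 to 5.59 in NOD/ShiLtJ. These ratios use Ttr, and no test was run on them. Whether reads of strains far from the reference were lost in alignment was not tested.

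**Figure D5:**
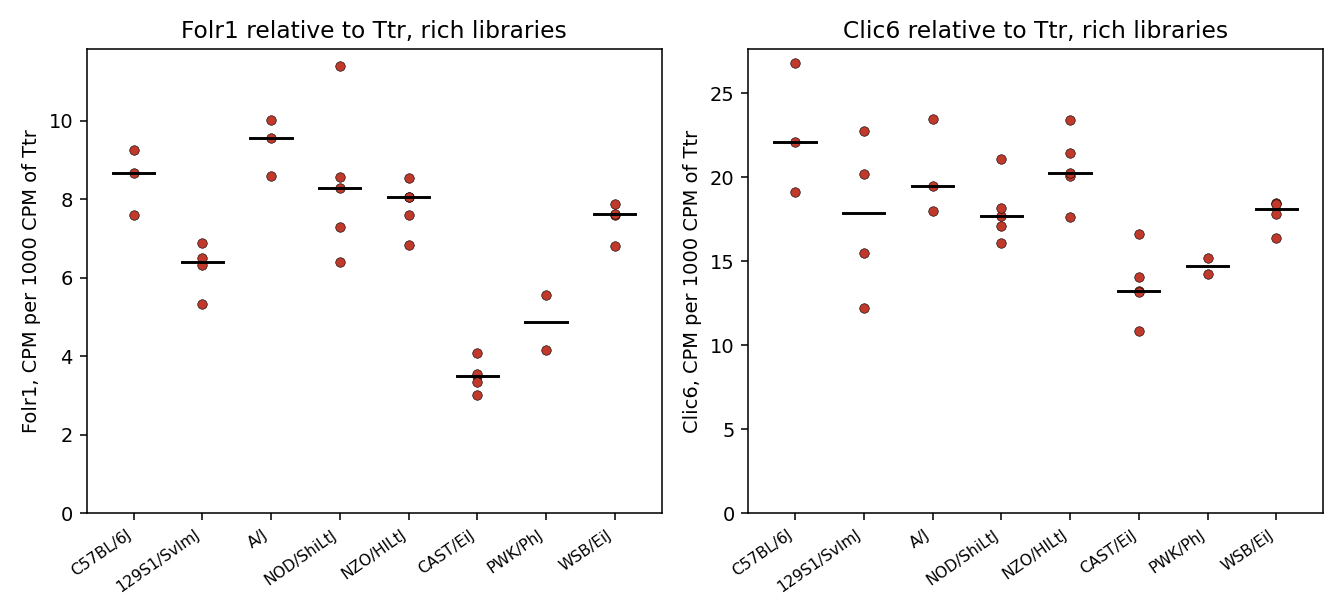
Folr1 and Clic6 per 1000 CPM of Ttr in the 31 rich libraries by strain, with a point for each library and a bar at the strain's median. Folr1 lies between 3.0 and 4.10 in CAST/EiJ, below all rich libraries of the other strains.

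The class difference itself was compared between strains and sexes. A strain by class interaction passed the test in 3 genes (0.0173%), among them Aldh3a1 and Chrna2, and in 0 of the 829 higher genes. A sex by class interaction passed in 0 genes (0%) by edgeR, the only tool run for it, with 1406 at an unadjusted p under 0.05. A missed threshold does not show that strains or sexes were alike. By strain means, Enpp2 in rich libraries was 3.48 to 6.48 times its level in poor libraries, lowest in 129S1/SvImJ and highest in A/J. Kl was 2.41 times as high in rich as in poor libraries in 129S1/SvImJ and 12.2 times in PWK/PhJ, whose poor libraries had the least Kl.

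The 6 libraries between the cutoffs entered no class. Their Ttr ran from 139 to 451 CPM, their Folr1 from 0.901 to 4.36 CPM, their Aqp1 from 1.90 to 3.62 CPM and their Kcnj13 from 1.05 to 2.65 CPM. In Aqp1 all 6 lay above all poor libraries, and their range overlapped the lower end of the rich ones. With strain as covariate these 6 libraries leave 0 residual degrees of freedom, so no slope could be tested in them. Over the 33 libraries under 500 CPM, poor ones included, 33 genes (0.19%) rose with Ttr by edgeR's test and 0 fell, with 267 falling at an unadjusted p under 0.05.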

How the data were processed

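RNA sequencing of hippocampus from 64 mouse samples was used. RNA extraction included a DNase step and libraries came from a TruSeq kit, per the labels' protocols. The authors deposited a single table of raw counts per gene, with no normalization. The submitters' processing notes name build GRCm39, and the table's name gives Ensembl release 105. Aligner, counter, strand use and any alignment to strain genomes are not given in the sources used here. Columns were matched to samples by name, 50 exactly and 14 with a digit less than the title, and replicate numbers only name libraries. Symbols were found for 32146 of 32227 identifiers in GENCODE M21.

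Levels are CPM over the column total. edgeR 4.0.16 in R 4.3.3 was run on the genes that filterByExpr kept over the 16 groups of strain and sex (minimum count 10, minimum total 15). The fit used TMM scaling, robust quasi-likelihood and strain as covariate, and p-values were Benjamini-Hochberg adjusted with a threshold of 0.05. Ttr stayed out of the tests. Standard errors are the log2 fold change over the root of F. The planned slope between the cutoffs could not be fitted, and slopes within rich and within poor libraries were added after the data were seen. The script was tested on simulated counts. Alternatives included DESeq2 1.42.0, other scalings, filters, covariates and cutoffs, and left-out rich libraries or strains.

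The classes, markers, lists and rules were chosen with earlier results of these data known. Named genes were up to 4 per list with the largest called difference, or the 2 most abundant where none was called. Outside the lists they were the 15 widest and 10 most negative called protein-coding genes with a mean of at least 1 CPM, and the 10 most like Ttr. Genes named after their values were seen are marked as such, and of the rule's picks some are given by name only. A few results are not reported here. Promoter sequences come from RefSeq.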

Additional observations from a re-analysis of the deposited data

Results flagged for a closer look

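Ttr and the 4 further markers were looked at in each strain and class with 4 or more libraries and over the 6 libraries between the cutoffs. In these 50 sets 5 values stood far from the rest of their set, and chance flags about 1 in 20. CAST/EiJ female 4 was far above the other rich libraries of its strain in 3 genes. It had 4695 CPM of Ttr, where the others had 1540 to 2103 CPM. It had 14.11 CPM of Folr1, where the others had 6.31 to 7.48 CPM, and 50.84 CPM of Clic6, where the others had 25.4 to 27.9 CPM. Without this library 365 genes rose with Ttr among rich libraries. Among poor libraries, 129S1/SvImJ female 2 had 0.6438 CPM of Aqp1, where the others of its strain had 0.268 to 0.310 CPM. PWK/PhJ male 2 had 0.887 CPM of Clic6, where the others had 1.48 to 1.56 CPM.

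In Aldh3a1 and Chrna2 the difference between rich and poor libraries differed between strains by edgeR's interaction test. For Aldh3a1, an aldehyde dehydrogenase, the adjusted p was 0.02238. Aldh3a1 averaged 5.83 ± 1.27 CPM in rich (SD, n = 2) and 1.05 ± 0.150 CPM in poor libraries (SD, n = 4) of PWK/PhJ, and in the other 7 strains the rich mean was 0.486 to 1.15 times the poor mean. For Chrna2, a nicotinic receptor subunit, the adjusted p was 0.006599. Chrna2 averaged 3.27 ± 0.976 CPM in rich (SD, n = 5) and 0.336 ± 0.0757 CPM in poor libraries (SD, n = 2) of CAST/EiJ, and in the other 7 strains the ratio of means ran from 0.778 to 1.63. Neither gene passed the class test over all strains, and a strain with 2 libraries in a class weighs on each of them.

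Of the 6 libraries between the cutoffs, which no class used, 3 had a summed level of Folr1, Kcnj13, Aqp1 and Clic6 above that of every poor library. Their Ttr was above the lower cutoff by the rule.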

How the results depend on the processing

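The count of higher genes, 829 in the main fit, varied over the 51 alternatives. It ran from 598 with a mean of at least 50 counts to 1030 for a slope on log2 Ttr over all libraries, and was 679 without C57BL/6J. Of the 143 with a log2 of 1 or more, 48 were left at a mean of at least 50 counts, where fewer genes are tested. The 115 lower genes were less stable. They numbered 187 with DESeq2, 71 with no count filter, 46 at a mean of at least 50 counts, 184 with rich at 1000 CPM or more, 73 with poor under 50 CPM and 229 for the slope over all libraries. They numbered 35 without C57BL/6J, 62 without CAST/EiJ, 36 without NOD/ShiLtJ and 46 without PWK/PhJ, and 61 to 148 when a rich library was left out, with 61 without PWK/PhJ female 2. The cause was not tested. Against 0 genes lower by a log2 of -1 or less, 1 was found with DESeq2, with 16 groups, with poor under 50 CPM, with both stricter cutoffs together, and without C57BL/6J, CAST/EiJ or WSB/EiJ. The count was 2 with rich at 1000 CPM or more and without PWK/PhJ, 6 with no count filter, and 0 to 1 when a rich library was left out. Of 14 genes falling with Ttr among rich libraries, 7 to 28 were found when a library was left out. The count was 7 without C57BL/6J male 2, 9 without C57BL/6J male 4, 8 without NZO/HlLtJ female 4, 23 without 129S1/SvImJ female 1 and 28 without WSB/EiJ female 1. Those rising numbered 283 to 391.

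Of 95 named genes that passed the class test, 79 kept the call in all alternatives and 16 lost it in at least 1, and 2 of 24 others gained it. The alternatives left out single rich libraries but no single poor library. No named gene changed direction. Classes drawn from Folr1, Kcnj13, Aqp1 and Clic6 shared 30 of 31 rich and 26 of 27 poor libraries with those from Ttr. Leaving out strains that lack a class changes nothing, since all 8 have both. No paired analysis was possible because the labels give no replicate numbers shared between groups. Genes with a few reads per poor library, such as Ins2, Cdh3 and Mfrp, have log2 fold changes that depend on counting error there.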
